A study of Mus musculus with 2 samples.

Results

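The 37 genes of the mouse mitochondrial genome were described in peritoneal macrophages from Ankrd22 knockout and wild type mice. Members were all features whose symbol starts with mt-, which gave 37 of 55450 features: 13 messenger, 2 ribosomal and 22 transfer RNA genes. All 37 had a UMI (unique molecular identifier, 1 counted RNA molecule) in both libraries. The naming rule itself uses no measured value, but it was set with earlier results of these data known.

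The mitochondrial genome is a small circular DNA that is transcribed from both strands into long precursors, and the transfer RNAs are cut out of these to release the messenger and ribosomal RNAs. The messenger RNAs encode core subunits of the respiratory chain (complexes I, III and IV) and of ATP synthase, and the ribosomal and transfer RNAs serve their translation inside the organelle. Most mitochondrial messenger RNAs carry short poly(A) tails, which lets oligo-dT methods capture them. The mitochondrial share of a cell's UMIs is widely used as a quality measure in single-cell data.

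Each genotype had 1 library, for which F4/80+ cells were taken from peritoneal lavage fluid with a cell sorter and prepared with 10x Genomics 3' chemistry. The knockout (Ankrd22-/-) mice were made with CRISPR/Cas9 by Cyagen Biosciences, and the other library came from Ankrd22+/+ mice. The labels used here give no age, sex, number of animals or batch and name no treatment, and F4/80+ sorting limits the material to macrophages and cells carried along with them. With 1 library per genotype, differences between libraries have no replicate check and no p-value is given. Genotype, animal and library cannot be told apart. Ankrd22 itself had 0 UMIs in both libraries, which allows up to 0.0270 and 0.0310 CPM (UMIs per 1000000 UMIs of the library) at 3 counts, so the genotype labels could not be checked from it.

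There were 110956482 UMIs over 6706 barcodes for the knockout and 96869041 UMIs over 6315 barcodes for the wild type. After filtering, 6036 and 5946 cells remained, of which 5344 and 4782 were named large-macrophage-like and 467 and 859 small-macrophage-like. All 12 markers of large macrophages, such as Gata6, Timd4 and Adgre1 (which encodes F4/80), were seen in the large-macrophage-like cells of both libraries, at a summed 17472 and 17865 CPM. In those cells the T cell markers summed to 0.296 and 0.681 CPM, and the erythroid markers, mostly haemoglobin genes, to 99.0 and 40.7 CPM. Haemoglobin genes were among the leading genes of knockout clusters 0 and 1 and wild type cluster 7. Values without these 3 clusters, called haemoglobin-led, are given where they matter. Haemoglobin UMIs were in 16.7%, 22.1% and 3.69% of their cells, against 33.6% in knockout cluster 7 and 5.14% in wild type cluster 6. A minority of cells thus carried the haemoglobin UMIs. Small-macrophage markers summed to 8603 and 9905 CPM in small-macrophage-like cells, against 235 and 479 CPM in large-macrophage-like cells. The small-macrophage-like cells also held large-macrophage markers, at 10412 and 11481 CPM, so the classes are not cleanly separated. Knockout cluster 10 of that class was named from 3 markers. The libraries shared 15 barcodes, 11 of them among kept cells.

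Some members have copies in the nuclear genome, and the sequences below show how close these are. GENCODE M21, on the GRCm38 assembly, annotates 6 unprocessed pseudogenes on chromosome 1 that match mt-Co1, mt-Co2, mt-Atp6, mt-Co3, mt-Nd3 and mt-Nd4. The first pair below is where the copy of mt-Co1 begins (chrM:6381-6440, plus strand, and chr1:24616138-24616197, minus strand). The second pair is the 3′ end of the stretch that mt-Co2 shares with its copy (chrM:7634-7693, plus strand, and chr1:24614885-24614944, minus strand). Capitals mark bases that differ within a pair.
mt-Co1: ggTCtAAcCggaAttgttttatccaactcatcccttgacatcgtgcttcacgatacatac
Gm29216: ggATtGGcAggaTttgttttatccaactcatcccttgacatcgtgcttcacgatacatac
mt-Co2: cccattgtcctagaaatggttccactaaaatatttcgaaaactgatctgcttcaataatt
Gm28661: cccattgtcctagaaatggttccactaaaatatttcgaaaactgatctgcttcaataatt
The mt-Co1 pair differed at 6 of 492 overlapping bases, all within the stretch printed, and the mt-Co2 pair at 0 of 681.

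The share of each member that is found letter for letter in a copy was taken over all windows of 91 bases. This share was 99.9% for mt-Co3, 99.5% for mt-Co2, 99.5% for mt-Atp6 and 97.7% for mt-Nd3. It was 61.0% for mt-Nd4 and 26.7% for mt-Co1, and 0% for the other 7 messenger and both ribosomal RNAs. Among these, mt-Atp8 still matches Gm10925 over its last 43 bases, a stretch shorter than the window. A read from a shared stretch matches both places equally well, and how such reads were counted is not given in the sources used here. The 6 copies themselves had 16 to 154 UMIs each in knockout and 6 to 125 in wild type large-macrophage-like cells. Counts of mt-Co2, mt-Co3, mt-Atp6 and mt-Nd3 are therefore uncertain as levels. So are those of mt-Co1, whose shared stretch, bases 1054 to 1545 of 1545, includes the 3′ end that this chemistry reads. The shared stretch of mt-Nd4 is bases 1 to 876 of 1378.

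Per length, among the 13 messenger RNAs, cytochrome b of complex III stood highest and the cytochrome oxidase subunits Co2 and Co3 lowest. UMIs come from the 3′ end of an RNA, so dividing by length can lower long members, and without it mt-Nd4l was the lowest messenger RNA (0.111% of the mitochondrial UMIs of knockout large-macrophage-like cells, against 0.1505% for mt-Co2). Over all barcodes of the knockout and wild type library, mt-Cytb had 3295 and 1895 CPM per kb of annotated length. The complex I subunits mt-Nd1 (2663 and 1266 CPM per kb) and mt-Nd2 (2452 and 1013 CPM per kb) followed. mt-Nd3, nearly all of whose windows are shared, stood sixth of the 13 messenger RNAs in the knockout library, at 661 and 366 CPM per kb. mt-Co3 had 37.1 and 18.1 CPM per kb, and mt-Co2 had 33.7 and 19.7 CPM per kb. The products of these genes are subunits of 1 enzyme with mt-Co1, which had 544 and 228 CPM per kb and also shares its 3′ end with a copy. mt-Nd6 had 63.7 and 23.2 CPM per kb, and mt-Nd4l 57.3 and 26.4 CPM per kb, with no shared window. The part of shared sequence in these levels was not tested.

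**Figure D1:**
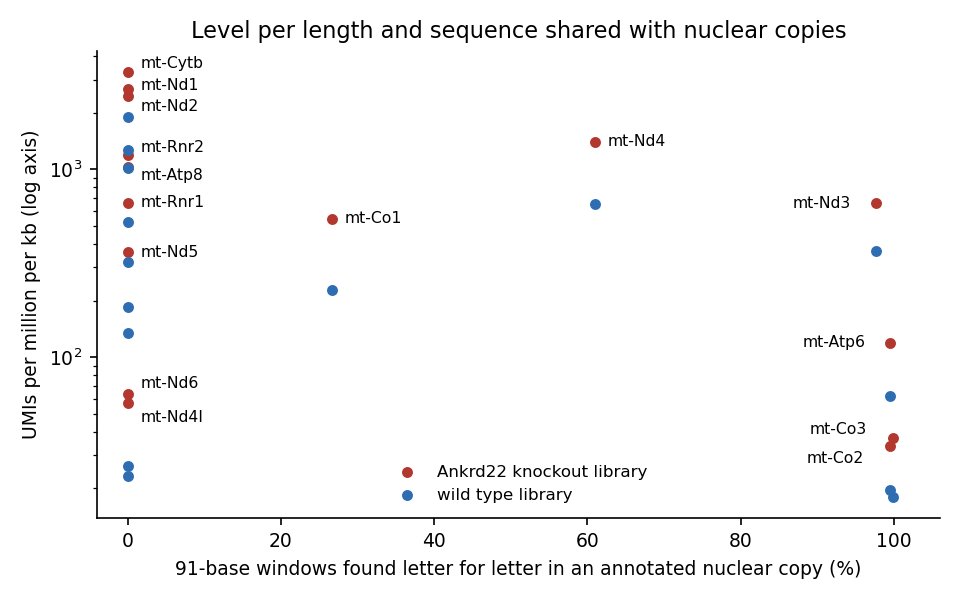
The x axis gives the percent of 91-base windows of each messenger and ribosomal RNA that an annotated nuclear copy holds letter for letter, and the y axis its CPM per kb over all barcodes (log axis), with 1 point per member and library. mt-Co2, mt-Co3 and mt-Atp6 lie low at over 99%, mt-Nd3 lies higher at 97.7%, and mt-Nd6 and mt-Nd4l lie low at 0%.

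A few members made up most of the mitochondrial UMIs. In large-macrophage-like cells, mt-Cytb took 24.6% of them in knockout and 29.7% in wild type cells. mt-Nd2 took 16.7% and 14.8%, mt-Nd1 16.7% and 16.7%, and mt-Nd4 12.5% and 12.4%. With mt-Rnr2 (11.5% and 11.5%), the large ribosomal RNA, and mt-Co1 (5.45% and 4.84%), these 6 members held 87.5% and 89.97%. The other 31 members shared the rest, with the small ribosomal RNA mt-Rnr1 at 3.83% and 2.45%. By RNA class, messenger RNAs held 84.4% and 85.8%, ribosomal RNAs 15.3% and 14.0%, and transfer RNAs 0.299% and 0.182%. The libraries thus had the same 11 leading members in nearly the same order, and 5.55% of the mitochondrial UMIs would have to change member to make the compositions equal. The 3′ end of mt-Cytb (chrM:15229-15288, plus strand, GRCm38), the most counted member, is shown with the mt-Tt gene that begins at the next base.
mt-Cytb: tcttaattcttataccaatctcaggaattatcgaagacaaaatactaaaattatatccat
mt-Tt: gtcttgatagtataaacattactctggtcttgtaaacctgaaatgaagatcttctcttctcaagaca
mt-Tt (chrM:15289-15355, plus strand), the threonine transfer RNA, had more UMIs than the other 21 transfer RNAs in both libraries, 1664 and 594 over all barcodes.

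In large-macrophage-like cells every messenger RNA had a higher CPM in the knockout than in the wild type library. The 37 members summed there to 15115 CPM (1328968 UMIs) for the knockout, against 7351 CPM (507605 UMIs) for the wild type. That is a 2.06-fold difference, or a log2 ratio of 1.04 (95% interval 1.04 to 1.04, exact binomial given both totals). All ratios are of CPM plus 1, knockout over wild type, unless said otherwise, and their intervals are those of the ratio without the added 1. Intervals and zero limits cover counting error only. Of the 13 messenger RNAs, 13 were at least 1.5-fold higher, where 12% of the 5032 genes at 20 CPM or more in either library were. mt-Nd4l lay below that minimum and was counted as a member. At least 2-fold higher were 7 of the 13, against 1.77% of those genes. The median gene stood at 0.22.

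The complex I messenger RNAs were unequal among themselves. mt-Nd5 had 656 CPM in knockout and 253 CPM in wild type cells, a log2 ratio of 1.37. mt-Nd6, the only messenger RNA on the minus strand, had 31.7 and 12.4 CPM (1.28). mt-Nd2 had 2524 and 1085 CPM (1.22). mt-Nd4 (1.05), mt-Nd1 (1.04) and mt-Nd4l (0.93) lay closer to the total, and mt-Nd3 was at 227 and 131 CPM (0.80). mt-Nd4l and mt-Nd4 overlap in the genome by 7 bases, so a few of their reads may be split between them.

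mt-Cytb of complex III, the most counted member, differed less than most, with 3721 and 2185 CPM and a log2 ratio of 0.77 (0.76 to 0.78). Of the complex IV subunits, mt-Co1 had 824 and 356 CPM (1.21), mt-Co3 28.1 and 14.7 CPM (0.89) and mt-Co2 22.7 and 13.6 CPM (0.70). Of the ATP synthase subunits, mt-Atp8 had 206 and 67.2 CPM (1.6, 1.57 to 1.66) and mt-Atp6 79.8 and 43.4 CPM (0.86). The mt-Atp8 and mt-Atp6 genes overlap by 43 bases on the same strand, and mt-Atp8 is the one with no 91-base window in a nuclear copy. Its 3′ end, bases 162 to 204 of 204, nevertheless matches the mt-Atp6 copy Gm10925 at all 43 bases. The part of this stretch in the mt-Atp8 count was not tested. The intervals of mt-Atp8 and mt-Cytb do not overlap, so the members did not differ between the libraries by 1 common factor.

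The ribosomal RNAs also differed from each other. mt-Rnr1 had 578 and 180 CPM, a log2 ratio of 1.68 (1.65 to 1.71), and mt-Rnr2 1740 and 849 CPM, a log2 ratio of 1.03 (1.02 to 1.05). These genes lie on the same precursor, separated only by mt-Tv, the valine transfer RNA.

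**Figure D2:**
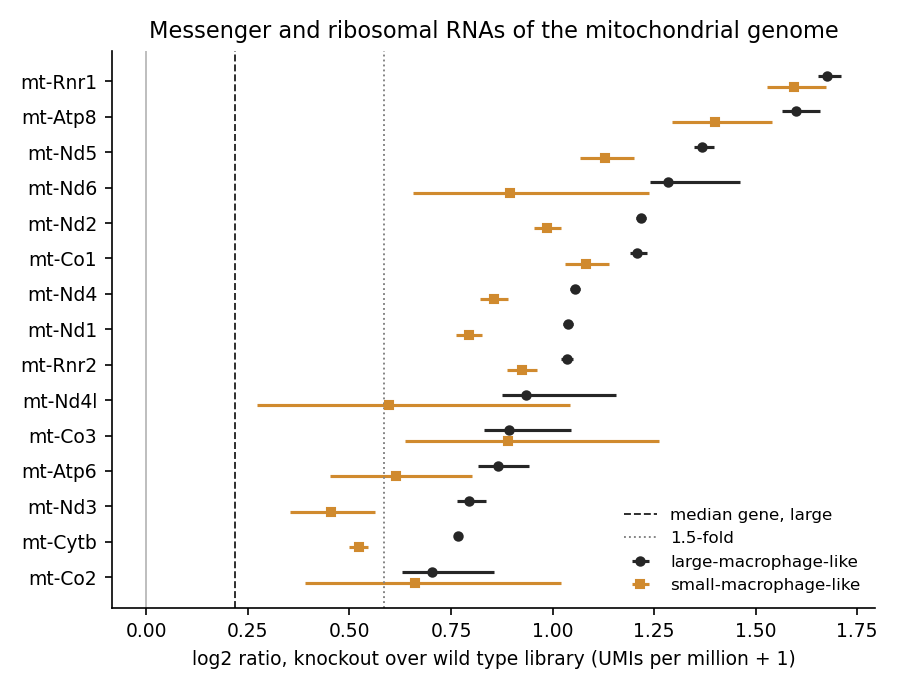
The x axis gives the log2 ratio of CPM plus 1, knockout over wild type, for the 13 messenger and 2 ribosomal RNAs on the y axis, in large-macrophage-like (circles) and small-macrophage-like cells (squares). Bars are 95% counting intervals of the ratio without the added 1, the dashed line is the median gene at 0.22 and the dotted line 1.5-fold. mt-Rnr1 and mt-Atp8 stand farthest right and mt-Co2, mt-Cytb and mt-Nd3 farthest left in large-macrophage-like cells.

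Transfer RNAs, which are short and in their mature form carry no poly(A) tail, were rare. In large-macrophage-like cells the 22 summed to 3970 UMIs (45.2 CPM) in knockout and 922 UMIs (13.4 CPM) in wild type cells, a log2 ratio of 1.69 (1.65 to 1.86). The counting interval of the plain ratio lay above 1-fold for 20 of the 22. It included 1-fold for mt-Ty (13 and 4 UMIs) and mt-Tl2 (11 and 2 UMIs), which was too few to show a difference. The share of all genes with an interval above 1-fold was not counted. The median gene at 20 CPM or more already stood at a log2 ratio of 0.22, so 20 of 22 cannot be read as particular to transfer RNAs. The largest difference among the 10 with at least 20 wild type UMIs was in mt-Tv (chrM:1025-1093, plus strand), whose sequence lies between the ribosomal RNA genes.
mt-Tv: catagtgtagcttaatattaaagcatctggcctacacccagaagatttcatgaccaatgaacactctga
mt-Tv had 470 UMIs in knockout and 24 in wild type cells, a plain ratio of 15.4 (10.2 to 24.2). The smallest of those 10 ratios was that of mt-Tw, the tryptophan transfer RNA, with 263 and 126 UMIs (1.64, 1.32 to 2.04). mt-Tt had 1309 and 433 UMIs (2.37, 2.13 to 2.65). The median plain ratio of the 10 was 4.15. By strand, over all barcodes, the 14 transfer RNAs on the plus strand had a median of 193 and 31 UMIs and the 8 on the minus strand 67.5 and 16 UMIs.

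**Figure D3:**
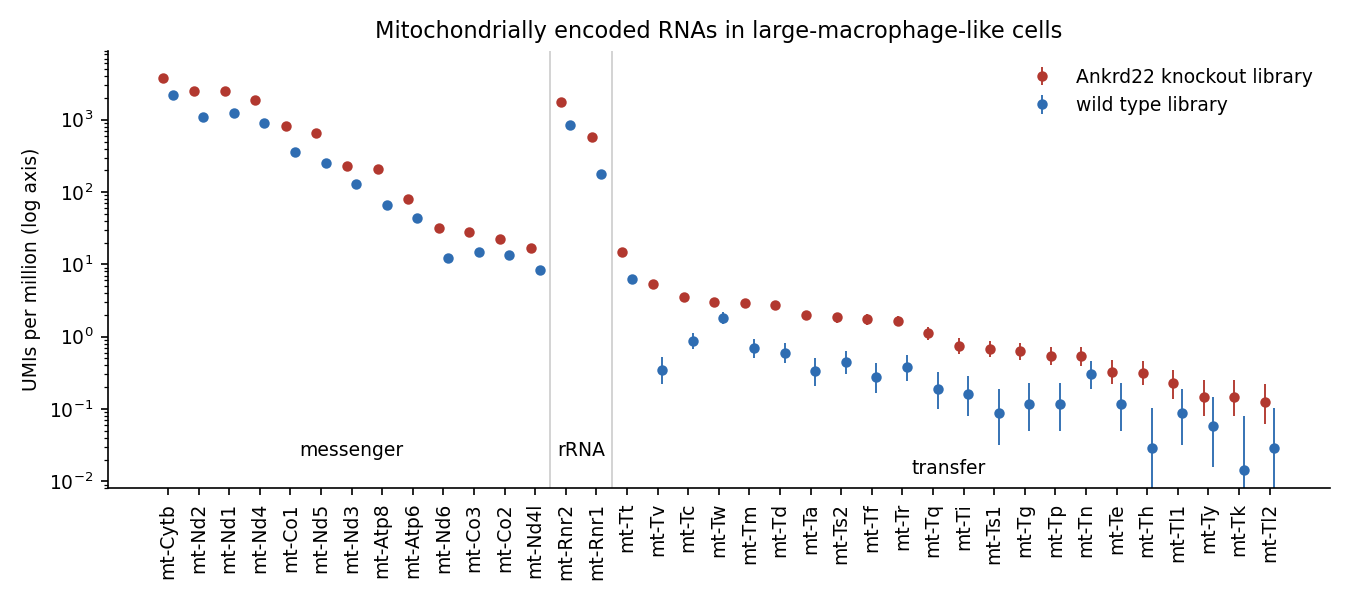
The y axis gives CPM (log axis) in large-macrophage-like cells for the 37 members on the x axis, ordered by RNA class and by their level in the knockout library. Points are the libraries and bars exact Poisson 95% intervals, the lowest running off the axis; the knockout point lies above the wild type point for each member, from mt-Cytb (3721 and 2185) down to mt-Tl2 (0.125 and 0.0290).

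Scalings by TMM or the median of ratios lowered the total. The CPM put the median gene above 0, and TMM factors from edgeR moved all genes down by 0.29 (0.28 by the median of ratios). Relative to that shift the total was at 0.75, and 9 of the 13 messenger RNAs were at least 1.5-fold higher, with mt-Cytb at 0.48, mt-Co2 at 0.43, mt-Nd3 at 0.51 and mt-Atp6 at 0.58 below it. mt-Rnr1 was at 1.39 and mt-Atp8 at 1.31. All 37 members had ratios above 0 under TMM, but the share of all genes above 0 was not counted. The ratios of mt-Ty (0.092) and mt-Tl2 (0.11) rest on few UMIs, 13 and 4 and 11 and 2. Without the 3 clusters led by haemoglobin genes (3073 and 4375 cells left) the total was at 1.06, with all 13 messenger RNAs past 1.5-fold. The share of all genes past 1.5-fold was not counted under TMM or without these clusters.

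The difference was visible cell by cell, and the libraries differed in spread as well as in level. The median large-macrophage-like cell of the knockout had 230 mitochondrial UMIs (quartiles 173 to 303), and that of the wild type 82 (34 to 156). As a share of the cell's UMIs this was a median of 1.5% with quartiles of 1.28 and 1.73% in the knockout library. In the wild type library the quartiles were 0.329 and 1.04%, so the upper wild type quartile lay below the lower knockout quartile. The coefficient of variation of the share was 0.426 in knockout and 0.816 in wild type cells, where counting alone would give 0.0710 and 0.114.

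Many wild type cells had almost no mitochondrial UMIs. A share below 0.1% was seen in 539 of 4782 wild type cells (11.3%, exact binomial 95% interval 10.4 to 12.2%) and in 2 of 5344 knockout cells (0.0374%, 0.00453 to 0.135%). Fewer than 10 mitochondrial UMIs were counted in 469 wild type and 6 knockout cells, and none in 31 and 1. The wild type cells below 0.1% were not empty: they had a median of 12635 UMIs and 2832 genes, against 13970.5 and 3004 over all wild type large-macrophage-like cells, and Gata6 at 165 CPM. Thinned to 2000 UMIs per cell, 250 of 4727 wild type cells (5.29%) and 0 of 5308 knockout cells had no mitochondrial UMI, with 55 and 36 shallower cells left out. The low cells were spread over the wild type clusters, making up 5.41 to 15.8% of each of the 9 large-macrophage-like clusters.

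**Figure D4:**
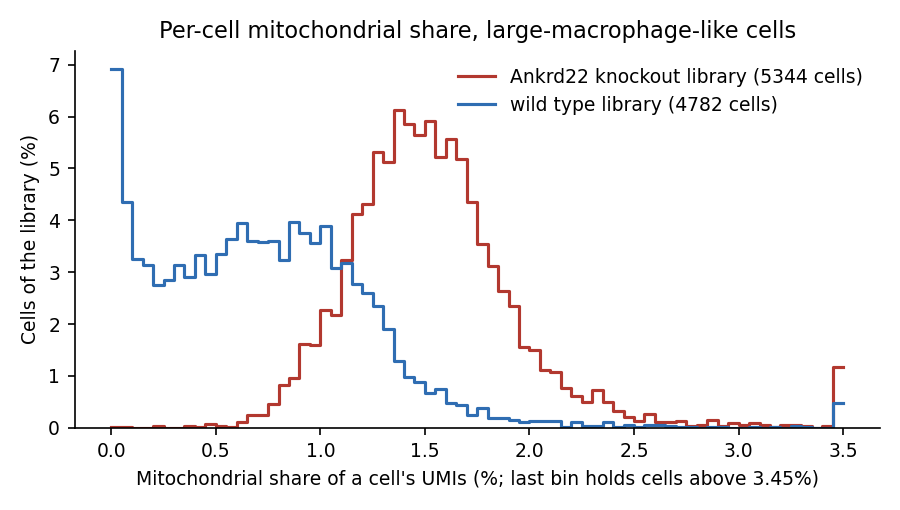
The x axis gives the mitochondrial share of each large-macrophage-like cell's UMIs in bins of 0.05 percentage points, and the y axis the percent of that library's cells in the bin. The knockout cells form 1 peak around 1.5%, and the wild type cells run from near 0, where 11.3% lie below 0.1%, to about 1.5%.

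Among large-macrophage-like clusters, the libraries did not overlap. The pooled mitochondrial share ran from 1.32 to 1.65% over the 7 large-macrophage-like clusters of the knockout library and from 0.498 to 0.942% over the 9 of the wild type library. The knockout extremes were cluster 1, led by Gm8696 and haemoglobin genes, and cluster 7, led by Marco, a scavenger receptor gene. The wild type extremes were cluster 9, led by heat shock genes such as Hspa1a and by Ccl5, and cluster 2, with Tns1 and Marco among its leading genes. Ribosomal RNAs made up 24.4% of the mitochondrial UMIs in wild type cluster 9 and 12.8 to 17.3% in the other 8.

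The relation of mitochondrial to other UMIs per cell also differed. Across the 5344 knockout large-macrophage-like cells, Spearman's correlation of mitochondrial with other UMIs was 0.80, and across the 4782 wild type cells 0.55. Each set of cells is from 1 library, and the correlation describes those cells. On log10 axes the least-squares slope was 0.82 in knockout and 0.97 in wild type cells, where 1 means a constant share. The wild type slope lay on either side of 1 under other settings, from 0.93 without the ceiling on the share to 1.26 within the central 90% of depths, so its direction relative to 1 is not settled. The summed nuclear-encoded respiratory chain and ATP synthase messenger RNAs followed the other UMIs about equally in both, at 0.90 and 0.90. They are themselves part of the other UMIs, which mitochondrial UMIs are not, so these values are not directly comparable with those of the members.

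The share itself was slightly lower in deeper cells of the knockout library and uneven over depth in the wild type library. Over 10 equal groups of cells ordered by other UMIs, the median knockout share was 1.65% in the lowest (median 7235 UMIs) and 1.45% in the highest (27964 UMIs). The median wild type share was 0.735% in the lowest group (4587 UMIs), 0.553% in the third (10018 UMIs) and 0.886% in the highest (25808 UMIs). Spearman's correlation of the share with other UMIs was -0.14 in knockout and 0.11 in wild type cells. The median knockout share lay above the median wild type share in each pair of groups of the same rank, though the groups were set within each library and differ in depth. Within 4 strata of other UMIs per cell, set over both libraries, the log2 ratio of the total was 1.30, 1.31, 1.02 and 0.82 from the shallowest to the deepest.

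Malat1, a noncoding RNA kept in the nucleus, was also higher in the knockout library. It had 12358 CPM in knockout and 4885 CPM in the wild type large-macrophage-like cells (log2 ratio 1.34). Neat1, another nuclear noncoding RNA, had 287 and 91.8 CPM (1.64), and Kcnq1ot1, an antisense RNA that is also kept in the nucleus, 117 and 30.1 CPM (1.92). Within the wild type library Spearman's correlation of the mitochondrial share with the Malat1 share was 0.33, and within the knockout library it was -0.02. Both shares use the same UMIs as denominator. With cells split into 4 equal groups by Malat1 share, the median mitochondrial share of wild type cells was 0.363% in the lowest group and 0.839% in the highest. In knockout cells these groups stood at 1.52% and 1.48%.

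Among cells with 0.6 to 1.2% of their non-mitochondrial UMIs from Malat1 (2144 knockout and 1327 wild type cells, a range chosen after seeing the values), the total was 1.74-fold higher in the knockout library, a log2 ratio of 0.80. Malat1 stood at 9212 and 8194 CPM there. In that range 9 of the 13 messenger RNAs were at least 1.5-fold higher. The others were mt-Nd3 (0.54), mt-Co2 (0.40), mt-Nd4l (0.36) and mt-Nd6 (0.19). The share of all genes past 1.5-fold was not counted in this range. The mitochondrial share was below 0.1% in 5.12% of these wild type cells. The part of these nuclear RNAs in the difference between the libraries was otherwise not tested.

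**Figure D5:**
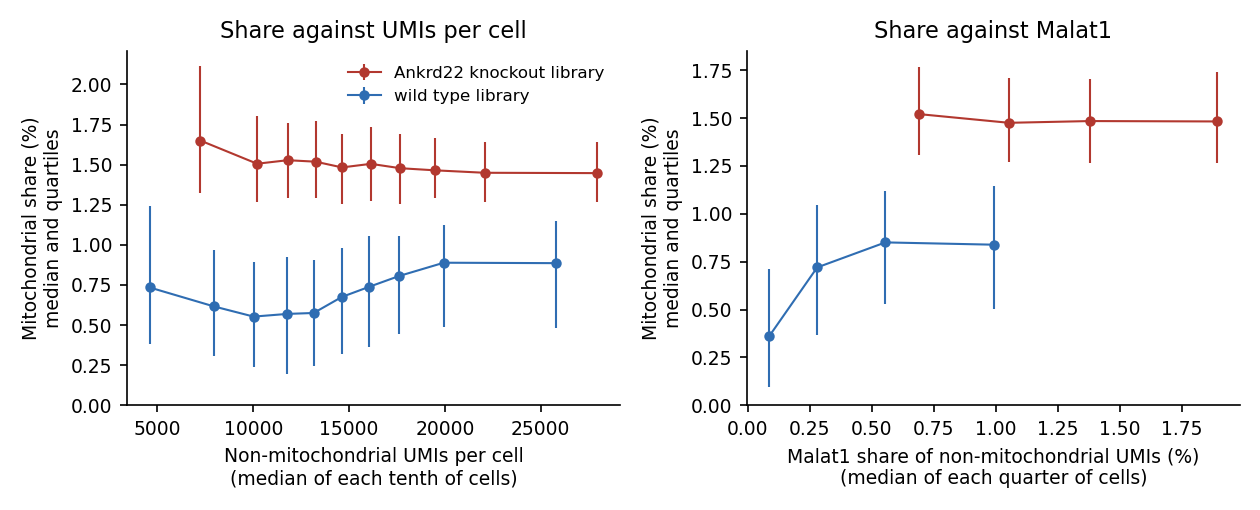
Points give the median and bars the quartiles of the mitochondrial share (y axes, percent) in large-macrophage-like cells, over 10 equal groups of cells by non-mitochondrial UMIs (left x axis) and 4 by Malat1 share (right x axis). The knockout points stay near 1.5% on both axes, and the wild type points go from 0.363% in the group with the least Malat1 to 0.839% in the group with the most.

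The makeup of the mitochondrial UMIs differed along the share in both libraries. mt-Cytb held 33.4% of them in wild type cells below 0.1%, 28.1% at 1.0 to 1.5% and 25.3% at 1.5 to 2.0%. mt-Nd2 went the other way, from 13.3% to 15.5% and 16.0%, and mt-Atp8 from 0.639% to 0.948% and 0.882%. The lowest of these ranges rests on 3284 mitochondrial UMIs from 539 cells. In the knockout library mt-Cytb held 24.3% at 0.6 to 1.0%, 25.1% at 1.0 to 1.5% and 24.7% at 1.5 to 2.0%. Over these ranges knockout mt-Nd2 went from 15.4% to 16.4% and 17.1%. Knockout mt-Rnr2 went from 14.6% to 11.4% and 10.8%, and stood at 13.4% in cells from 2.0 to 10%.

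The libraries differed in makeup also where the shares were alike. Among cells with a share of 1.0 to 1.5% (2361 knockout and 1096 wild type cells), mt-Rnr1 held 3.80% in knockout and 2.56% in wild type cells. mt-Atp8 held 1.37% and 0.948%, mt-Nd5 4.38% and 3.54%, and mt-Nd3 1.43% and 1.80%. Malat1 was at 12510 and 5825 CPM in these cells.

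Barcodes above 10% mitochondrial UMIs, which the filter left out, differed from the kept cells in depth and in makeup. There were 269 of them among the knockout barcodes (4.01%) against 23 among the wild type ones (0.364%), with medians of 722 and 636 UMIs and 266 and 289 genes. Ribosomal RNAs held 36.9% and 24.6% of their mitochondrial UMIs, above the 15.3% and 14.0% of large-macrophage-like cells. Malat1 reached 50289 and 39215 CPM in them. They also held large-macrophage RNA, with Gata6 at 218 and 320 CPM and Adgre1 at 455 and 595 CPM. Over all barcodes, with none left out, the mitochondrial share was 1.55% and 0.723%.

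Small-macrophage-like cells of the knockout library also had more mitochondrial UMIs per UMI than those of the wild type library. The total was 11906 CPM in knockout and 6707 CPM in wild type cells, a log2 ratio of 0.83 (0.82 to 0.84). At least 1.5-fold higher were 11 of the 13 messenger RNAs, against 13.7% of 5321 genes at 20 CPM or more in either library. The exceptions were mt-Cytb, at 2949 and 2053 CPM (0.52), and mt-Nd3, at 155 and 113 CPM (0.45). mt-Rnr1 again stood highest of the messenger and ribosomal RNAs, at 489 and 161 CPM (1.59). A share below 0.1% was seen in 121 of 859 wild type cells (14.1%) and in 0 of 467 knockout cells, which allows up to 0.642%. Whether the ratio differs between large- and small-macrophage-like cells was not tested.

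Summed over each library, small-macrophage-like cells had less mitochondrial RNA per UMI than large-macrophage-like cells. The log2 ratio of small over large was -0.34 in knockout and -0.13 in wild type cells. None of the 13 messenger RNAs was 1.5-fold lower in either, where 2.88% of 5304 genes in knockout and 1.74% of 4765 in wild type cells were. The 13 ranged from -0.55 (mt-Nd3) to -0.23 (mt-Co1) in knockout and from -0.38 (mt-Co3) to 0.02 (mt-Nd6) in wild type cells. Knockout cluster 10, with 24 cells, a median of 46311 UMIs and a share of 0.896%, moved the knockout value to -0.30 when left out. With cells of at least 1000 genes the wild type value was -0.0020, and over 4 strata of depth it was -0.18, 0.03, -0.24 and -0.20, with the opposite sign in the second.

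Cycling cells and B cells carried the difference too. In the 186 knockout and 268 wild type cycling cells, marked by Mki67 and Top2a, the totals were 13888 and 5712 CPM (log2 ratio 1.28). In the 39 and 37 B-cell-like cells, marked by Cd79a and Ms4a1, they were 26816.5 and 12743.5 CPM (1.07), above those of large-macrophage-like cells in both libraries. Their median depth was lower, at 3752 and 5057 UMIs. Ribosomal RNAs held 28.7% and 18.6% of the mitochondrial UMIs in B-cell-like cells, with mt-Rnr2 at 6017 and 1898 CPM against 1740 and 849 CPM in large-macrophage-like cells. mt-Nd3 was about level between these cell types, at 223 and 131 CPM in B-cell-like cells.

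The share of cells with a UMI followed the levels. After thinning to 2000 UMIs, mt-Cytb had a UMI in 99.7% and 86.4% of the knockout and wild type large-macrophage-like cells (99.98% and 96.7% before thinning). mt-Rnr1 was seen in 66.0% and 26.7% (99.3% and 71.3% before thinning), and mt-Co2 in 4.2% and 2.77% (30.05% and 16.6%). Median depths were 15717.5 and 14029 UMIs. All cell types hold mitochondria, so no cell type here gives a level of free RNA: in B-cell-like cells mt-Rnr1 was seen in 97.0% and 57.1% after thinning, at median depths of 4417 and 5395 UMIs.

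Genes for the nuclear-encoded partners of these products differed less than the members. Among 36 complex I subunits at a mean of 5 CPM or more, the median log2 ratio was 0.25 and none was 1.5-fold higher, where 12.2% of 8459 genes at a mean of 5 CPM or more were. None of 9 complex III subunits (median 0.23), of 12 complex IV subunits (0.20) or of 16 ATP synthase genes (0.16) was either. The genes with the largest ratios in each list were Ndufs1 (0.51), Uqcrq (0.51), Cox6a1 (0.58) and Atpif1 (0.58), which encode subunits or, for Atpif1, the inhibitor of ATP synthase. Atp5g2, a subunit c gene, stood lower in the knockout library, at 26.9 and 37.3 CPM (-0.46). The median of the 8459 genes was 0.21.

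Lists of genes that act on mitochondrial DNA, RNA and proteins had medians of 0.20 to 0.37, and their counts of genes at least 1.5-fold higher are to be read against the same 12.2%. For replication and transcription of mitochondrial DNA, 2 of 10 measured genes were at least 1.5-fold higher (median 0.20). Of these genes the single-strand binding protein Ssbp1, at 83.5 and 62.2 CPM, had 0.42. For processing and decay of mitochondrial RNA, 4 of 19 were (median 0.37), among them the oligoribonuclease Rexo2 at 179 and 118 CPM (0.60). Of 77 mitochondrial ribosomal proteins 5 were (median 0.29), led by Mrpl52 at 392 and 211 CPM (0.89). The lists of translation factors and tRNA synthetases (2 of 19, with Iars2 at 0.98), inner membrane assembly (4 of 32, with Uqcc2 at 0.67), biogenesis regulators (1 of 8) and mitophagy and dynamics (2 of 16, with the fission gene Dnm1l at 0.97) had medians of 0.31, 0.28, 0.21 and 0.28. No gene of these lists was 1.5-fold lower, where 3.51% of the 8459 genes were.

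The 6 nuclear copies of the members did not share the difference uniformly. Gm28661, the copy of mt-Co2, had 154 and 125 UMIs (1.75 and 1.81 CPM), and Gm10925, the copy of mt-Atp6, 90 and 74 UMIs (1.02 and 1.07 CPM). For Gm29216, Gm10925, Gm28437, Gm28438 and Gm28661 the counting interval of the ratio included 1-fold. For Gm28439, the copy of mt-Nd4, with 46 and 16 UMIs, it did not.

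Across cells of 1 library, members varied together to very different degrees. For each of the 15 messenger and ribosomal RNAs, the share was correlated with that of the other 36 members over large-macrophage-like cells. Spearman's correlation ran from 0.03 (mt-Nd6) to 0.67 (mt-Nd2) in knockout and from 0.22 (mt-Nd4l) to 0.90 (mt-Nd2) in wild type cells. mt-Rnr2, the fifth most counted member, had 0.16 in the knockout library, below mt-Nd3 at 0.42, and 0.73 in the wild type library. The members with few UMIs per cell have low values by counting alone, and all values share the cell's depth.

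Of 2055 other genes at 50 CPM or more in both libraries, none followed the mitochondrial share closely over cells. The 5 highest mean correlations of the libraries were those of Dennd4a (0.08 in knockout and 0.26 in wild type cells), Rpl5 (0.02 and 0.31), Neat1 (0.13 and 0.20), Dusp1 (0.23 and 0.09) and Zfp36 (0.22 and 0.09). Among the lowest were those of Fcer1g (-0.11 and -0.22), Pfn1 (-0.11 and -0.16) and Rps27a (-0.09 and -0.17). These are weak values in sparse counts over 5344 and 4782 cells.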

How the data were processed

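Peritoneal F4/80+ cells of 1 Ankrd22 knockout and 1 wild type library were measured by 10x Genomics single-cell RNA sequencing. The deposited values are raw UMI counts per gene and barcode, and per the file headers the authors' Cell Ranger was 6.1.2. The submitters' processing notes also list bcl2fastq, Seurat 4.1.0 and the mm9 build, while all 55450 feature identifiers are in GENCODE M21 (GRCm38), which gave positions and transcript sequences.

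Cells needed at least 500 genes and at most 10% mitochondrial UMIs. Scrublet's automatic threshold called 1 barcode in each library and had not worked, so the highest scores were removed at 0.8% per 1000 barcodes (324 and 313). Cells were clustered per library with scanpy 1.11.5 without the mitochondrial genes (2000 variable genes, 30 components, 15 neighbours, Leiden resolution 1) and named from marker lists of 16 classes. UMIs were summed per library and class and scaled to CPM, and ratios used an added 1. Genes named outside the members were up to 4 per list with the largest absolute log2 ratio at a mean of 20 CPM or more, Malat1, Neat1 and Ankrd22, and the 5 highest and lowest correlates, of which some are not reported here. Kcnq1ot1 stands in a list of nuclear-retained RNAs. Members and lists were chosen with earlier results of these data known. Alternatives covered filters, clustering, scaling (edgeR 4.0.16), pseudocount, depth strata and thinning; restriction by Malat1, and leaving out clusters or members with nuclear copies, were added after seeing the data. The ratio and interval code was tested on simulated data. A total of 269 and 47 barcodes fell under the gene minimum.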

Additional observations from a re-analysis of the deposited data

Results flagged for a closer look

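Spearman's correlation of the mitochondrial share with the other UMIs of a cell had opposite signs in the libraries. In large-macrophage-like cells it was -0.14 for the knockout but 0.11 for the wild type, and in small-macrophage-like cells -0.29 and 0.092. The wild type share of large-macrophage-like cells was uneven over depth, and its slope lay on either side of 1 under other settings. A direction for the wild type library is therefore not settled. The difference was not tested, since each genotype has 1 library.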

How the results depend on the processing

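Of 99 alternative values for 10 results, 35 were labelled the same and 64 moved. No log2 ratio or slope changed sign. The count of messenger RNAs, the shares per cell and the composition difference cannot be negative, so they could not change sign. Same meant within the counting interval for log2 ratios of totals, and within the 95% interval of the median for shares per cell. For the count of messenger RNAs it meant within 1.5 times. The composition difference and the slopes had no interval and were the same only if equal after rounding, which none of their alternatives was. The wild type slope, main value 0.97, passed 1 under several settings. In order, the values without the ceiling on the mitochondrial share, with at least 1000 genes per cell and without doublet removal were as follows. The log2 ratio of the total, main value 1.04, was 1.03, 1.05 and 1.02 in large-macrophage-like cells, and 0.77, 0.78 and 0.87 in small-macrophage-like cells, main value 0.83. The composition difference was 5.60, 5.70 and 5.67%. The slope was 0.83, 0.82 and 0.82 in the knockout and 0.93, 1.18 and 1.0 in the wild type library. Small over large was -0.37, -0.27 and -0.25 in the knockout and -0.10, -0.0020 and -0.10 in the wild type library. With clustering resolution 0.5 the total was 1.03 (large) and 0.79 (small), the composition difference 5.60%, the slopes 0.82 and 0.99, and small over large -0.37 in the knockout library. With 1 clustering over both libraries the total was 1.03 (large), the composition difference 5.58%, the slopes 0.81 and 1.01, and small over large -0.38 and -0.18. TMM gave totals of 0.75 (large) and 0.52 (small), the median of ratios 0.76 and 0.51, and CPM of non-mitochondrial UMIs 1.05 (large). The count of 13 messenger RNAs past 1.5-fold was 9 with TMM and 10 with the median of ratios. The share of all genes past 1.5-fold was not counted under other scalings or sets of cells. The mean over depth strata gave 1.11 and 0.94, with small over large at -0.26 and -0.15. The wild type median share was 0.65% after thinning. At a 2-fold threshold 7 of 13 messenger RNAs counted as higher. Messenger RNAs alone gave a composition difference of 5.85%. The slopes were 0.91 and 1.26 within the central 90% of depths and 0.91 and 1.16 by Theil-Sen. The other alternatives were chosen after seeing the data. In the Malat1 range the totals were 0.80 and 0.57, the count 9, the wild type median share 0.859% and the composition difference 5.01%. Without members sharing sequence with nuclear copies the total was 1.03, 7 of 7 messenger RNAs were past 1.5-fold and the composition difference was 6.25%. Without haemoglobin-led clusters the total was 1.06, the knockout median share 1.53%, the composition difference 5.81%, the slopes 0.75 and 1.0, and small over large -0.38 in the knockout library. Without cluster 10 the small-macrophage-like total was 0.88 and small over large -0.30. The causes of these shifts were not tested. No paired analysis was possible because each genotype has 1 library. Depth limits the transfer RNAs, with 922 UMIs over 4782 wild type cells.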
